A study of Rattus norvegicus with 3 samples.

Results

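The genes described here encode 39 enzymes and membrane proteins of the lysosome: cathepsins and other proteases, hydrolases of glycans and lipids, membrane glycoproteins, and a pair of subunits of the proton pump V-ATPase. They were taken by name as a functional group, with no measured value in the rule. A probe with a RefSeq accession named 33 of the 39 genes, among 13301 genes named on the array, and 32 of them (of 10019 genes) were well above background on at least 1 array. Idua, Ids, Naglu, Sgsh, Npc1 and Ppt1 had no named probe, so their expression was not analysed here. Galc, the galactosylceramidase, had intensities of 16.1 in MSC, 19.5 in COS1NR and 6.13 in MFH1NR, not well above background on any array, and no ratio was formed.

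RNA of 3 rat cell populations of strain F344 was hybridised, each to 1 one-color Agilent whole rat genome array. COS1NR is an osteosarcoma line and MFH1NR a malignant fibrous histiocytoma line, both derived from tumors induced by the carcinogen 4-HAQO and both bearing a p53 mutation per the study's methods. MSC are mesenchymal stem cells of femur marrow, obtained by their adherence to plastic and grown with more serum than the lines. The study states that they were not sorted by surface markers and names possible heterogeneity of these cells as a limit. The arrays address how sarcoma cells differ from syngeneic MSCs in gene expression. Each group was 1 array, each sarcoma was a single cell line, and no source says whether other cultures were sampled, so no test was made and no error between cultures could be given.

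The lysosome is the acidic compartment in which cells degrade proteins, glycans, lipids and nucleic acids delivered by endocytosis, phagocytosis and autophagy. Its soluble hydrolases are mostly tagged with mannose 6-phosphate in the Golgi and carried there by receptors, the V-ATPase acidifies the lumen, and heavily glycosylated proteins such as LAMP1 line the membrane. Many of the genes carry an E-box in their promoter that is read by TFEB and related MiT/TFE transcription factors, and phagocytes and osteoclasts, the bone-resorbing cells of the macrophage lineage, are rich in lysosomes.

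Between 56.6% and 59.7% of the spots of an array were called well above background by the scanner software, and none was saturated. The intensity at the 75th percentile was 589 for MSC, 774 for COS1NR and 994 for MFH1NR, and each array was divided by it before any log2 ratio was taken. Intensities are given as deposited, in arbitrary units before that division, and are comparable only within 1 gene. The arrays of COS1NR and MFH1NR lay on the same slide and that of MSC on another, so a difference of slide and a difference from MSC cannot be told apart. Replicate spots gave a ratio a log2 spread of 0.08, and different probes of 1 gene differed by a median of 0.28 in log2 for COS1NR to MSC and 0.31 for MFH1NR to MSC over 1891 genes. These spreads cover neither cultures nor labeling.

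The labels were set against markers. Counts of markers at least 2-fold higher or lower than in MSC are read beside the shares of all genes. These shares were 21.1% higher and 21.9% lower in COS1NR and 20.6% and 22.9% in MFH1NR. The MSC surface genes Cd44, Nt5e, Thy1 and Eng were well above background in MSC, with intensities of 18465, 1174, 2781 and 561, while Thy1 was not in COS1NR and Eng in neither sarcoma. Of 7 osteoblast markers used, 6 were lower than in MSC in COS1NR, the osteosarcoma line, and 4 were lower and 2 higher in MFH1NR. The osteoblast transcription factor gene Sp7, singled out after its values were seen, was well above background in MFH1NR only, at 108. Of 6 adipocyte markers, 4 were higher and 2 lower in COS1NR, and 5 were lower in MFH1NR. The MSC array also carried RNA of macrophage genes. Of 25 macrophage and myeloid markers with a probe, 23 were well above background in MSC, 9 in COS1NR and 8 in MFH1NR, and their intensities in multiples of the 75th percentile summed to 198, 6.19 and 4.19. The brightest by their mean log2 level over the arrays were Cd14, C1qb, Tyrobp and Fcer1g, each lower in both sarcomas. The lysozyme gene Lyz2, at 32304 in MSC, failed the background call in both sarcomas, which put COS1NR lower by at least 1444-fold and MFH1NR by at least 1813-fold. Adgre1, Itgam, Ptprc, Spi1, Cd163, Mrc1, C1qa, Clec4a1, Fcgr2b, Fcgr3a, Cybb and Ncf1 likewise failed the call in both sarcomas, and Marco and Cx3cr1 on every array. Of 5 osteoclast markers used, 4 were lower in COS1NR and 5 in MFH1NR, with summed levels of 71.9 in MSC, 2.67 in COS1NR and 7.44 in MFH1NR. Such a sum adds different probes and follows the brightest, here Ctsk in MFH1NR, which had a log2 ratio of 6.90 to COS1NR, while Acp5 had -1.84. In bulk RNA, fewer cells of a type and less RNA per cell cannot be told apart.

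Sequences upstream of 4 of the genes are shown because 3 of them, lower in MFH1NR than in MSC, hold E-box matches, and the promoter of Ctss holds an ETS motif close to the start site. They were chosen after the values were seen. Each is the 250 bases before the start site annotated by RefSeq on GRCr8, written 5′ to 3′ on the strand of the gene, with capitals for the E-box core CACGTG in Ctsd, Lamp1 and Atp6v0d1 and for the ETS motif AGGAAGT, here on the opposite strand, in Ctss. Ctsd lies at chr1:206968822-206969071 on the minus strand, Lamp1 at chr16:83075064-83075313 on the minus strand, Atp6v0d1 at chr19:50357249-50357498 on the minus strand and Ctss at chr2:185775146-185775395 on the plus strand.
Ctsd: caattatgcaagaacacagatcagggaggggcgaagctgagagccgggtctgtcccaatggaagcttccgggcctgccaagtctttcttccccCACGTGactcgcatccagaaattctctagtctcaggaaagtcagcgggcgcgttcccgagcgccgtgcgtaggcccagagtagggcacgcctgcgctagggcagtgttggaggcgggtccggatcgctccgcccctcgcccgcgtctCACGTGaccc
Lamp1: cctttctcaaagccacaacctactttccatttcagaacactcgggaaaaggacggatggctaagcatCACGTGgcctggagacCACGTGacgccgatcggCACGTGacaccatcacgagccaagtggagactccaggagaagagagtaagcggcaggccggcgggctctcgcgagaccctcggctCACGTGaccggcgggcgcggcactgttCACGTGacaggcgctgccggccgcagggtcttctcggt
Atp6v0d1: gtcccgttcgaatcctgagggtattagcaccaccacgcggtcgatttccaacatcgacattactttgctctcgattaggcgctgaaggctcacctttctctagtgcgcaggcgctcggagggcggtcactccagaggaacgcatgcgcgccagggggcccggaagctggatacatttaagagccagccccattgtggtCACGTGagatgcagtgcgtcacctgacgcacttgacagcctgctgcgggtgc
Ctss: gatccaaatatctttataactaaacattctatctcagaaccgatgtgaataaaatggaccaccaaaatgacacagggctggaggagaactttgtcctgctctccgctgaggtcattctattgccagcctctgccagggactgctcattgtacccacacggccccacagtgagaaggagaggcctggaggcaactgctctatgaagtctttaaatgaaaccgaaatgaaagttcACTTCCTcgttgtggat

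Relative to each array's 75th percentile, the median ratio of the lysosomal genes to MSC lay below that of all genes in both sarcomas. The median log2 ratio of the 32 genes was -0.40 in COS1NR (quartiles -1.03 and 0.14) and -0.77 in MFH1NR (quartiles -1.28 and -0.20), beside 0.11 and 0.01 for all 10019 genes. The ratio was below 0 for 23 of 32 genes in COS1NR and 27 in MFH1NR, but with no scaling between arrays 16 of 32 lay above 0 in each. The gap between the median of the lysosomal genes and that of all genes, -0.51 in COS1NR and -0.78 in MFH1NR, does not depend on a scaling by 1 factor per array. It was -0.53 and -0.66 with quantile normalization and -0.36 and -0.65 with normexp background correction. Ctss was well above background in MSC only, so that it entered by being high there. Over the 30 genes measured on all 3 arrays the medians were -0.37 and -0.71.

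A gene was counted as higher or lower when it was at least 2-fold apart and well above background on the brighter array. In COS1NR, 3 of the 32 genes (9.38%) were higher than in MSC, beside 21.1% of all genes, and 9 (28.1%) were lower, beside 21.9%. In MFH1NR, 2 (6.25%) were higher, beside 20.6% of all genes, and 13 (40.6%) were lower, beside 22.9%. Both sarcomas were lower for Ctsb, Ctsh, Ctss, Cd68 and Glb1 (15.6%, beside 14.6% of all genes), and both were higher for Atp6v1a (3.12%, beside 11.5%). The share lower in both lines thus lay near that of all genes, and the share lower in MFH1NR stood farthest above it. In all 3 comparisons, 10 genes (31.2%, beside 39%) stayed within 2-fold. Of the 33 genes with a probe, 30 (90.9%) were well above background on every array, beside 59.7% of all named genes.

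The split of higher and lower genes moved with the scaling. With none it was 4 higher and 5 lower in COS1NR (32% and 17.3% of all genes) and 4 higher and 5 lower in MFH1NR (41% and 15.3%), since the median of all genes then shifted by 0.39 and 0.76. The 5 lower genes are then 15.6% of 32, near the share of all genes in both lines. With spike-in scaling it was 0 and 12 in COS1NR (15.4% and 26.5% of all genes) and 3 and 5 in MFH1NR (33.8% and 17.1%). Median scaling gave 3 and 6 in COS1NR (25.3% and 19.7%) and 3 and 9 in MFH1NR (25.6% and 20.1%). Quantile normalization gave 2 and 6 in COS1NR (20.8% and 21.9%) and 2 and 9 in MFH1NR (21.8% and 22.1%). At a threshold of 3-fold, 4 genes (12.5%) were lower in COS1NR, beside 15.8% of all genes, and 5 (15.6%) in MFH1NR, beside 16.6%, so the greater share lower in MFH1NR was seen at 2-fold and not at 3-fold. None was 3-fold higher, beside 10.7% and 11.6% of all genes. Ctsh, Ctss, Cd68, Glb1 and Asah1 were the 5 of 9 genes that were past 2-fold in COS1NR under each alternative computed for them, and Ctsh, Ctss, Cd68, Glb1 and Psap the 5 of 13 in MFH1NR.

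**Figure D1:**
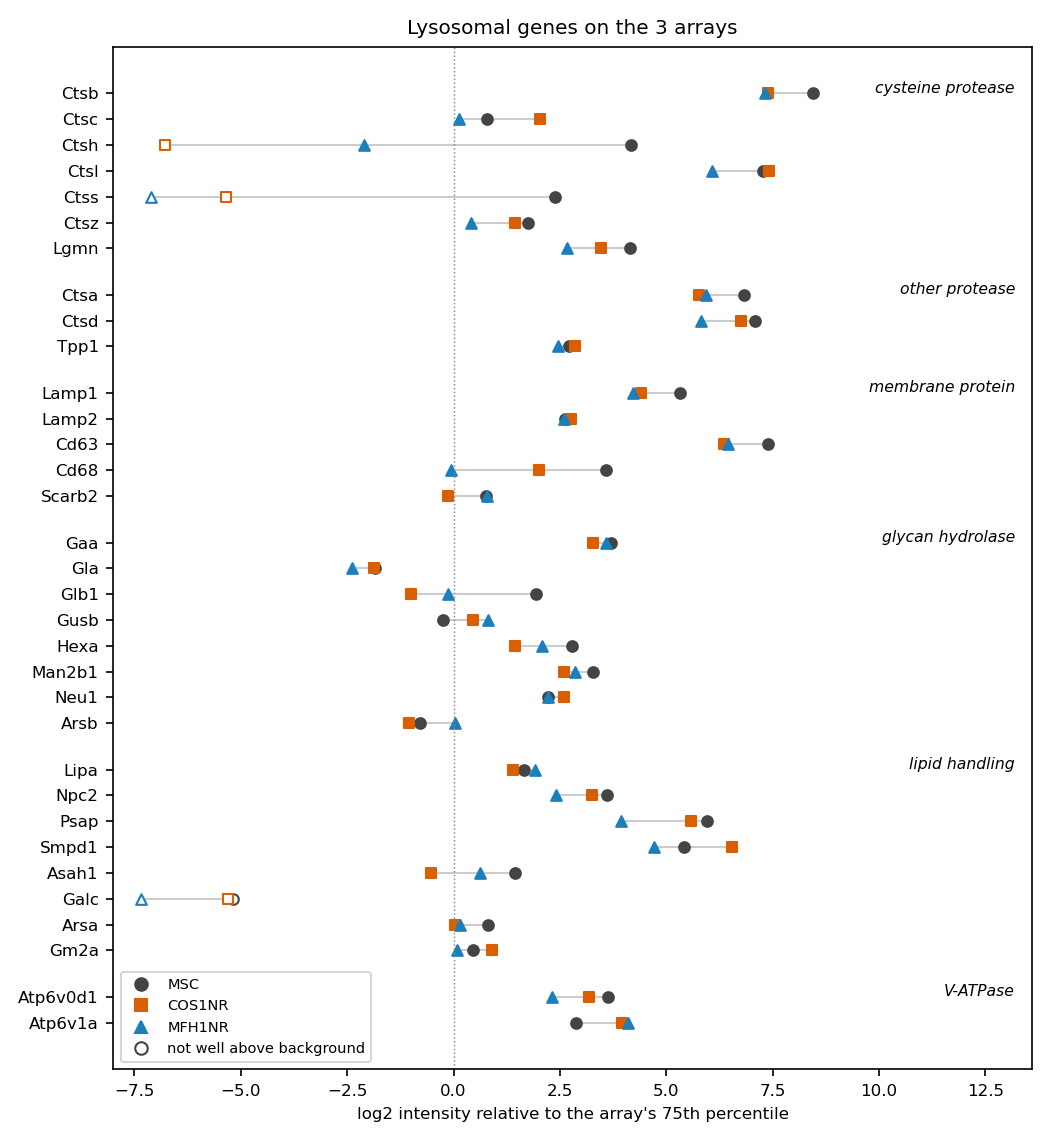
Level of each of the 33 lysosomal genes with a probe on the 3 arrays, as log2 intensity relative to the array's 75th percentile (horizontal axis), grouped by role; circles are MSC, squares COS1NR and triangles MFH1NR, 1 array each, and open symbols were not well above background. Symbols are compared along a line and not between lines: Ctsh and Ctss span the widest ranges, and in MFH1NR 13 genes lie at least 2-fold to the left of MSC.

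The plot of levels by array shows, at this scaling, most genes with MSC rightmost and 1 or both sarcomas to its left. Gusb and Atp6v1a are the genes with MSC leftmost. For 9 genes, Ctsl, Tpp1, Lamp2, Scarb2, Gaa, Gla, Neu1, Arsb and Lipa, at least 1 ratio to MSC was smaller than the median spread among a gene's probes.

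The counts by role that follow are read beside the shares of all genes, 21.1% higher and 21.9% lower in COS1NR and 20.6% and 22.9% in MFH1NR. Cysteine proteases, which cut proteins in the lumen at acid pH, held the widest differences. Of 7, 1 was higher and 3 were lower in COS1NR (median log2 ratio -0.68), and 6 were lower in MFH1NR (median -1.33). Ctsb encodes cathepsin B, an endo- and exopeptidase of most tissues, and its intensity was 207533 in MSC, 130017 in COS1NR and 157931 in MFH1NR. MSC was the high array, and the log2 ratio was -1.07 in COS1NR and -1.15 in MFH1NR, just past 2-fold in both and under 2-fold with no scaling (-0.67 and -0.39). Ctsh encodes the aminopeptidase cathepsin H, and its intensity was 10594 in MSC, 7.05 in COS1NR and 232 in MFH1NR. COS1NR was not well above background and lay at least 474-fold below MSC, and the log2 ratio in MFH1NR was -6.27.

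Ctss encodes cathepsin S, which trims the invariant chain of MHC class II in antigen-presenting cells. Its intensity was 3073 in MSC, 19.0 in COS1NR and 7.14 in MFH1NR, and only the value of MSC was well above background. COS1NR thus lay at least 137-fold and MFH1NR at least 172-fold below MSC. Its other probe, at 3026, 14.6 and 6.40, was likewise well above background in MSC only, and the order of the sarcomas was not measurable on either probe. The macrophage markers above were lower in the sarcomas together with Ctss, Ctsh and Cd68, with 23 of 23 used markers lower in both lines. Of those 23, 13 were well above background in MSC only and so, like Ctss, entered by being high there. Their part in the result was not tested.

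Ctsl, Lgmn and Ctsz were lower in MFH1NR and within 2-fold of MSC in COS1NR. Ctsl, encoding the endopeptidase cathepsin L, had an intensity of 90880 in MSC, 131468 in COS1NR and 66798 in MFH1NR. The log2 ratio was 0.14 in COS1NR and -1.20 in MFH1NR, and the second probe gave -0.03 and -1.50. Lgmn encodes legumain, which cleaves after asparagine and matures other cathepsins, and it had 10418, 8528 and 6276 in MSC, COS1NR and MFH1NR, with log2 ratios of -0.68 and -1.49. Ctsz, encoding the carboxypeptidase cathepsin Z, had 1980, 2100 and 1328 in the same order, with log2 ratios of -0.31 and -1.33. For all 3 genes MFH1NR was the low array, and with no scaling its log2 ratio stood at -0.44 for Ctsl, -0.73 for Lgmn and -0.58 for Ctsz.

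Ctsc was the exception among the cysteine proteases. It encodes the dipeptidyl peptidase cathepsin C, which activates granule serine proteases of immune cells, and its intensity was 1012 in MSC, 3177 in COS1NR and 1082 in MFH1NR. COS1NR was the high array, with a log2 ratio of 1.26 to MSC (0.98 with spike-in scaling), while MFH1NR had -0.66, which became 0.10 with no scaling.

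Among the other proteases, Ctsa was lower in COS1NR and Ctsd in MFH1NR. Ctsa encodes protective protein/cathepsin A, a carboxypeptidase that also holds beta-galactosidase and neuraminidase in a complex, and its intensity was 66938 in MSC, 41959 in COS1NR and 61227 in MFH1NR. The log2 ratio was -1.07 in COS1NR and -0.88 in MFH1NR, with -1.24 and -1.23 for COS1NR and -1.08 and -1.12 for MFH1NR on the other probes, so that in MFH1NR the choice of probe set the side of the 2-fold line. Ctsd encodes the aspartic protease cathepsin D and had 79845 in MSC, 84358 in COS1NR and 56093 in MFH1NR. MFH1NR was the low array, with log2 ratios of -0.31 in COS1NR and -1.26 in MFH1NR (-0.51 with no scaling). Tpp1, the tripeptidyl peptidase, was within 2-fold in all comparisons.

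Of 5 membrane proteins, 2 were lower in COS1NR and 2 in MFH1NR, and Cd68 was lower in both. Cd68, a sialomucin of macrophage lysosomes that is used as a macrophage marker, had an intensity of 7120 in MSC, 3135 in COS1NR and 956 in MFH1NR. The arrays were ordered MSC, COS1NR, MFH1NR from high to low, with log2 ratios to MSC of -1.58 and -3.65, and all values were well above background. The summed level of the macrophage markers was 198 in MSC, 6.19 in COS1NR and 4.19 in MFH1NR, and between the lines 2 markers were higher and 2 lower in MFH1NR. Their part in the result was not tested.

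Lamp1 and Cd63, general components of the membrane, differed less. Lamp1, a main glycoprotein of the lining, had 23483 in MSC, 16349 in COS1NR and 18570 in MFH1NR, with log2 ratios of -0.92 and -1.09. Cd63, a tetraspanin of late endosomes and lysosomes, had 98852 in MSC, 63933 in COS1NR and 86720 in MFH1NR, with log2 ratios of -1.02 and -0.94. For both genes MSC was the high array and the sarcomas stood close to each other, with log2 ratios of MFH1NR to COS1NR of -0.18 for Lamp1 and 0.08 for Cd63. The 2-fold line thus lay between values that were close to each other. Lamp2, the partner of Lamp1, had log2 ratios of 0.14 and -0.02, and Scarb2, the receptor that carries glucocerebrosidase, had -0.90 and 0.02.

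Glycan hydrolases, which remove sugars from glycoproteins, glycogen and glycosaminoglycans, had log2 ratios from -2.95 to 0.71 in COS1NR and from -2.07 to 1.06 in MFH1NR. Of 8, 2 were lower in COS1NR (median log2 ratio -0.33), and 1 was higher and 1 lower in MFH1NR (median -0.26). Glb1 encodes the beta-galactosidase whose activity is the usual stain for senescent cells, and its intensity was 2272 in MSC, 385 in COS1NR and 912 in MFH1NR. MSC was the high array and COS1NR the low one, with log2 ratios of -2.95 in COS1NR and -2.07 in MFH1NR. Hexa, the alpha subunit of beta-hexosaminidase, had 4070 in MSC, 2107 in COS1NR and 4183 in MFH1NR, with log2 ratios of -1.34 and -0.72. COS1NR was the low array for both genes.

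Gusb and Arsb took other directions. Gusb, encoding beta-glucuronidase, had 492 in MSC, 1055 in COS1NR and 1738 in MFH1NR, with log2 ratios of 0.71 and 1.06 (0.97 in MFH1NR with normexp background correction). MSC was the low array under all alternatives. Arsb, encoding the arylsulfatase that acts on dermatan sulfate, had 339, 375 and 1016 in MSC, COS1NR and MFH1NR, with log2 ratios to MSC of -0.25 and 0.83. MFH1NR was the high array and exceeded COS1NR by a log2 ratio of 1.08.

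Of 7 genes of lipid breakdown and transport, 1 was higher and 1 lower in COS1NR (median -0.36), and 2 were lower in MFH1NR (median -0.70). Psap encodes prosaposin, the precursor of the saposins that present sphingolipids to their hydrolases, and its intensity was 36637 in MSC, 36929 in COS1NR and 15189 in MFH1NR. MFH1NR was the low array, with log2 ratios of -0.38 in COS1NR and -2.03 in MFH1NR. Npc2, which hands cholesterol to the membrane protein NPC1, had 7166, 7342 and 5320 in MSC, COS1NR and MFH1NR, with log2 ratios of -0.36 and -1.18 (-0.43 in MFH1NR with no scaling).

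Smpd1 and Asah1 act in turn on sphingomyelin and ceramide. Smpd1, the acid sphingomyelinase, had 25246 in MSC, 71783 in COS1NR and 26277 in MFH1NR. COS1NR was the high array, with a log2 ratio of 1.11 (0.84 with spike-in scaling), and MFH1NR had -0.70, which became 0.06 with no scaling. Asah1, the acid ceramidase that degrades the product of Smpd1, had 1602 in MSC, 533 in COS1NR and 1537 in MFH1NR. COS1NR was here the low array, with log2 ratios of -1.98 in COS1NR and -0.82 in MFH1NR.

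The V-ATPase subunits took opposite directions in MFH1NR. Atp6v0d1, a subunit of the membrane sector, had 7310 in MSC, 7060 in COS1NR and 4914 in MFH1NR, with log2 ratios of -0.44 and -1.33 (-0.57 in MFH1NR with no scaling). Atp6v1a, the catalytic subunit of the cytosolic sector, had 4357, 11986 and 16994 in MSC, COS1NR and MFH1NR, with log2 ratios of 1.07 and 1.21. Its MSC value was the low one on each of 3 probes, but the log2 ratios of the others were 0.55 and 0.42 for COS1NR and 0.68 and 0.93 for MFH1NR, so only the brightest probe put it past 2-fold.

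The 10 genes within 2-fold in all comparisons were Tpp1, Lamp2, Scarb2, Gaa, Gla, Man2b1, Neu1, Lipa, Arsa and Gm2a. The brightest was Gaa, the glucosidase that degrades glycogen, with intensities of 7611 in MSC, 7487 in COS1NR and 11966 in MFH1NR and log2 ratios of -0.42 and -0.10. Man2b1, an alpha-mannosidase, had log2 ratios of -0.67 and -0.42. The log2 ratios of the 10 genes lay between -0.90 and 0.45 in COS1NR and between -0.66 and 0.27 in MFH1NR.

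**Figure D2:**
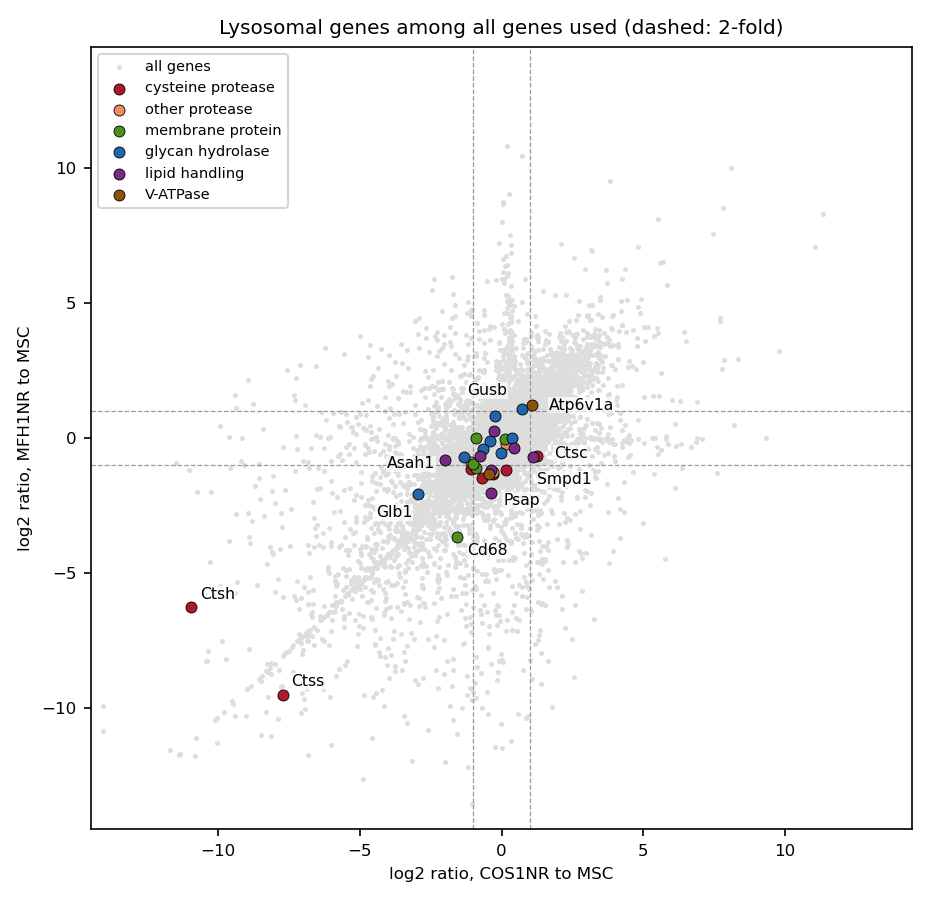
Log2 ratio to MSC in COS1NR (horizontal axis) and in MFH1NR (vertical axis) for the 10019 genes used (grey) and the 32 lysosomal genes (colored by role); both axes share the MSC array, and dashed lines mark 2-fold. Ctsh, Ctss, Cd68 and Glb1 lie at the lower left, Ctsc and Smpd1 to the right with values below 0 on the vertical axis, and Atp6v1a is the lysosomal gene past 2-fold at the upper right.

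The plot of both ratios shares its MSC array between the axes, so no correlation was taken from it. It shows that apart from Ctsh, Ctss, Cd68, Glb1, Asah1 and Psap the lysosomal genes lay near the 2-fold lines or inside them.

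The sarcoma lines were also set against each other on their common slide. In MFH1NR, 3 of 32 genes (9.38%) were higher than in COS1NR, beside 13.5% of all genes, and 6 (18.8%) were lower, beside 15.1%, so neither share stood far from that of all genes. The median log2 ratio was -0.17, beside -0.11 for all genes. With no scaling 5 were higher and 4 lower (20.3% and 10.8% of all genes), and with spike-in scaling 10 and 3 (33.9% and 8.08%), so that the 31.2% of lysosomal genes then higher lay near the share of all genes. At 3-fold, 1 gene (3.12%) was higher and 4 (12.5%) were lower, beside 8.86% and 9.25% of all genes.

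The 6 genes lower in MFH1NR were Ctsc, Ctsl, Ctsz, Cd68, Psap and Smpd1, with log2 ratios to COS1NR of -1.92, -1.34, -1.02, -2.08, -1.64 and -1.81. Of these, Ctsc, Cd68 and Smpd1 stayed past 2-fold under each alternative computed for them, and Psap all but spike-in scaling (-0.85). The 3 genes higher in MFH1NR were Ctsh, Arsb and Asah1. Ctsh was well above background in MFH1NR and not in COS1NR, at least 6.16-fold higher, and Asah1 had a log2 ratio of 1.17. The enzymes of sphingomyelin and ceramide thus differed between the lines in opposite directions, Smpd1 being higher in COS1NR and Asah1 in MFH1NR.

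Other genes of the pathway were taken from lists, and their counts too are read beside the shares of all genes (21.1% higher and 21.9% lower in COS1NR, 20.6% and 22.9% in MFH1NR, and with no scaling 32% and 17.3%, 41% and 15.3%). Of 25 other hydrolases and cofactors used, 2 were higher and 13 (52%) lower in COS1NR (median log2 ratio -1.01), and 3 were higher and 7 (28%) lower in MFH1NR (median -0.54). With no scaling 3 were higher and 8 lower in COS1NR, and 6 (24%) higher and 2 (8%) lower in MFH1NR. With spike-in scaling 1 was higher and 16 (64%) lower in COS1NR, beside 15.4% and 26.5% of all genes. In MFH1NR it gave 4 higher and 3 lower, beside 33.8% and 17.1%. Of the brighter ones, Fuca1, the alpha-fucosidase, had 54990, 34702 and 41899 in MSC, COS1NR and MFH1NR, with log2 ratios of -1.06 and -1.15 (-0.66 and -0.39 with no scaling). Scpep1 was lower in MFH1NR, Dpp7 in COS1NR and Rnaset2 in both, all of them under 2-fold with no scaling. Ggh, which trims glutamate from folates, had 5804, 11095 and 56286, with a log2 ratio of 2.52 in MFH1NR, and Hyal2 and Dnase2 were higher in 1 or both lines. Manba, the beta-mannosidase, had 141 in MSC, was not well above background in COS1NR at 13.8, and had 1174 in MFH1NR. Acp5 and Ctsk, enzymes of osteoclasts that also stand in the osteoclast marker list, were far lower in COS1NR, at log2 ratios of -8.31 and -8.69, and had -10.15 and -1.79 for MFH1NR.

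Of 24 other membrane proteins used, 3 were higher and 7 (29.2%) lower in COS1NR (median -0.03, or 0.09 with dim levels at their bound), and 2 were higher and 9 (37.5%) lower in MFH1NR (median -0.64). With no scaling 5 were higher and 5 lower in COS1NR, and 3 and 8 in MFH1NR. Laptm5, a membrane protein of blood cells, had 13864 in MSC, 2605 in COS1NR and 539 in MFH1NR, with log2 ratios of -2.81 and -5.44, the same order of the arrays as for Cd68. Slc11a1, the divalent metal transporter of phagosomes, had 1747 in MSC, 10901 in COS1NR and 22.4 in MFH1NR, where it was not well above background and at least 98.1-fold lower than in MSC. Slc29a3 was lower in both lines, Slc15a4 in COS1NR and Ostm1 in MFH1NR, while Abca2 was higher in both. Lamp3 was not well above background in MSC and was higher by at least 2.56-fold in COS1NR and 1.58-fold in MFH1NR. Of 17 other V-ATPase genes used, none was higher and 2 were lower in COS1NR (median 0.28), and 3 were higher and 2 lower in MFH1NR (median -0.21). With no scaling 2 were higher and 2 lower in COS1NR, and 4 and 1 in MFH1NR. Atp6v0e1, with 15375, 12412 and 9261 in MSC, COS1NR and MFH1NR, was lower in MFH1NR, at a log2 ratio of -1.49. Atp6v0e2 was lower in COS1NR, at -1.58. Atp6v0d2, the subunit of osteoclasts, passed the background call in MSC only. Atp6v1f and Atp6v1h were higher in MFH1NR, as was Atp6v1b1 by at least 1.82-fold over an MSC value not well above background.

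Among 18 genes of mannose 6-phosphate tagging and sorting, 1 was higher and 3 (16.7%) lower in COS1NR (median 0.00), and 0 were higher and 4 (22.2%) lower in MFH1NR (median -0.39), no greater shares lower than among all genes. With no scaling 1 was higher and 1 lower in COS1NR, and 3 were higher and 3 lower in MFH1NR. Igf2r, the large mannose 6-phosphate receptor that carries hydrolases from the Golgi, had 22978 in MSC, 306 in COS1NR and 4923 in MFH1NR, with log2 ratios of -6.62 and -2.98. Gga1 and Sort1 were lower in MFH1NR, Ap3b1 was lower in COS1NR and Ap1g1 higher in COS1NR. Of 15 MiT/TFE factors and regulators, 3 (20%) were higher and 2 (13.3%) lower in COS1NR (median 0.38), and 2 (13.3%) were higher and 1 (6.67%) lower in MFH1NR (median -0.24). With no scaling 5 were higher in each line. With spike-in scaling 2 were higher and 4 lower in COS1NR, and 3 higher and 1 lower in MFH1NR. Tfeb itself had 89.8 in MSC, 640 in COS1NR and 621 in MFH1NR, with log2 ratios of 2.44 and 2.03, so MSC was its low array. Rragd, a GTPase that recruits mTORC1 to the lysosome, had 37.4, 238 and 2516, with log2 ratios of 2.28 and 5.32, while Flcn, the activator of that GTPase, had -1.50 in COS1NR and -0.89 in MFH1NR. Tfec, counted among the lower genes of both lines, was well above background in MSC only, with bounds of 1.26-fold in COS1NR and 1.58-fold in MFH1NR, so it was not past 2-fold at its bound. Rptor was higher in COS1NR.

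Of 4 cystatins and related inhibitors used, 0 were higher and 2 lower in COS1NR, and 1 was higher and 2 lower in MFH1NR. Cst3, the secreted inhibitor of cysteine cathepsins, had log2 ratios of -1.15 and -1.11 (-0.76 and -0.36 with no scaling), while Cst6 was lower in COS1NR and higher in MFH1NR, and Cst7 was lower in MFH1NR. Of 25 autophagy genes, 0 were higher and 3 (12%) lower in COS1NR (median -0.11), and 1 was higher and 6 (24%) lower in MFH1NR (median -0.48). With no scaling 3 (12%) were higher and 1 lower in COS1NR and 5 (20%) higher and 1 lower in MFH1NR, while 32% and 41% of all genes were then higher. With spike-in scaling COS1NR had 0 higher and 4 lower, and MFH1NR had 3 higher and 2 lower. Gabarap and Optn were lower in both lines, Sqstm1 and Map1lc3b in MFH1NR, and Rb1cc1 was higher in MFH1NR. The proteasome, the other main route of protein breakdown, is shown for contrast. Of its 36 subunits, 2 were higher in COS1NR, Psma5 and Psmb4, and 3 in MFH1NR, Psmd6 and the immunoproteasome subunits Psmb9 and Psmb8, the last named for its values. None was lower in either line, and the medians were 0.56 and 0.12, beside -0.40 and -0.77 for the lysosomal genes. With no scaling 17 subunits (47.2%) were higher in COS1NR and 16 (44.4%) in MFH1NR, beside 32% and 41% of all genes, and with spike-in scaling 0 and 11 (30.6%), beside 15.4% and 33.8%.

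**Figure D3:**
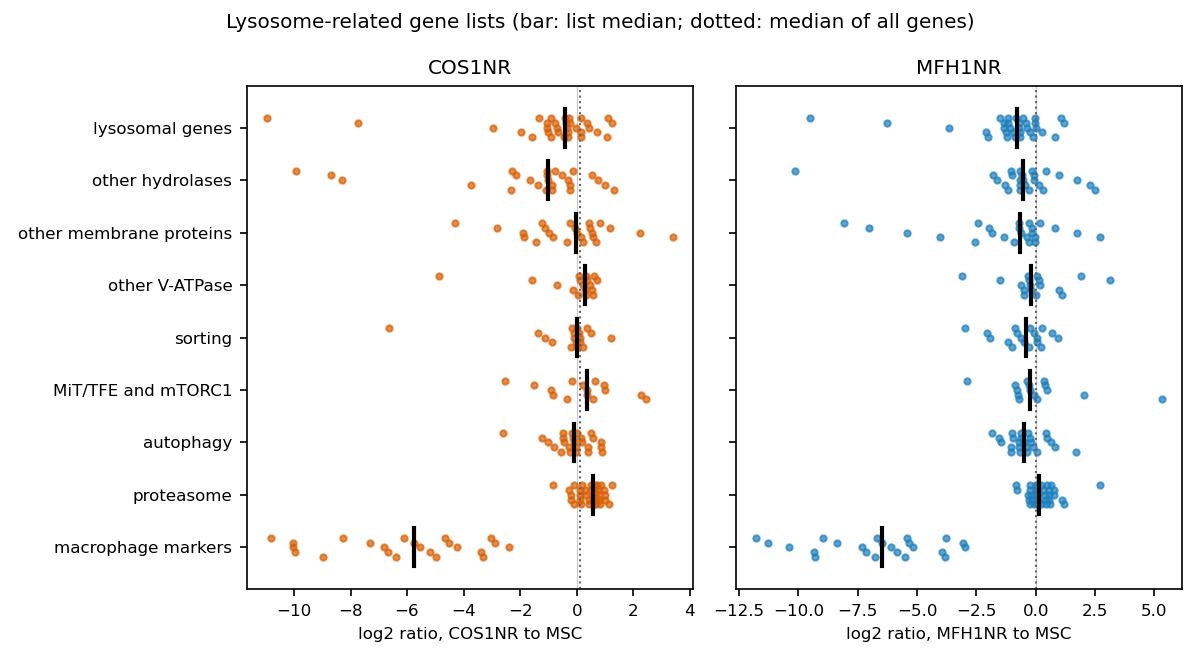
Log2 ratio to MSC (horizontal axis) of each gene used in the lysosomal group and in 8 lists, in COS1NR (left) and MFH1NR (right); points are genes, bars are list medians and the dotted line is the median of all genes, with 1 array per cell type. The lysosomal median is -0.40 and -0.77, the proteasome median 0.56 and 0.12, and the macrophage markers lie to the left, where 14 of 23 in COS1NR and 15 in MFH1NR were not well above background and are plotted at their measured values.

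The plot of lists places the median of the lysosomal genes between those of the proteasome and the macrophage markers. With levels not well above background set to their bound, the macrophage median was -4.60 in COS1NR and -5.32 in MFH1NR, and that of the lysosomal genes stayed at -0.40 and -0.77. The remaining marker lists gave these counts, read beside the shares of all genes given above. Stromal markers were lower for 11 of 13 in COS1NR and 8 in MFH1NR. Proliferation markers were higher for 10 of 10 in both lines. T cell markers (5 used, 3 lower in each line and 1 higher in COS1NR), the 1 B cell marker (lower in both), neutrophil markers (3 used, 2 higher in COS1NR and 1 lower in MFH1NR), erythroid markers (3 used, 2 higher in COS1NR and 1 in MFH1NR) and endothelial markers (3 used, 2 lower in both) were mostly dim. The calls of Cd4, Alas2, Dmp1 and Adipoq had a bound under 2-fold, and these genes are named after their values were seen. The part of these cell types in the lysosomal ratios was not tested.

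The promoters shown above were then placed beside the values. Of the 39 genes, 32 had a promoter in the RefSeq table, and Psap, Arsa, Ppt1, Hexa, Asah1, Ctsb and Arsb did not. Within 250 bases upstream, on either strand, CACGTG stood in 8 of the 32 promoters (25%), beside 5.59% of 33469 promoters and 7.94% of the 8587 promoters of genes used. TCACGTG, which contains it, stood in 7 (21.9%, beside 2.79% and 4.55%) and the palindrome TCACGTGA, which contains both, in 4 (12.5%, beside 0.657% and 1.37%). The genes were Atp6v0d1, Cd63, Ctsd, Gaa, Galc, Glb1, Lamp1 and Sgsh. The 32 promoters include genes without a ratio, Galc and Sgsh among them, so the shares of genes used are not like for like. Among lysosomal genes with a promoter and a ratio, 6 held CACGTG and 20 did not. Lamp1 held 5 copies of CACGTG and Ctsd 2. The ETS motif AGGAAGT stood in 4 promoters (12.5%, beside 7.08% and 7.65%), those of Atp6v1a, Ctsc, Ctss and Gla, and in Ctss it lay at positions -17 to -11 from the start site. Ctss was lower in both sarcomas, whereas Atp6v1a was higher in both on its brightest probe. Ctsc was higher in COS1NR, and Gla stayed within 2-fold.

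**Figure D4:**
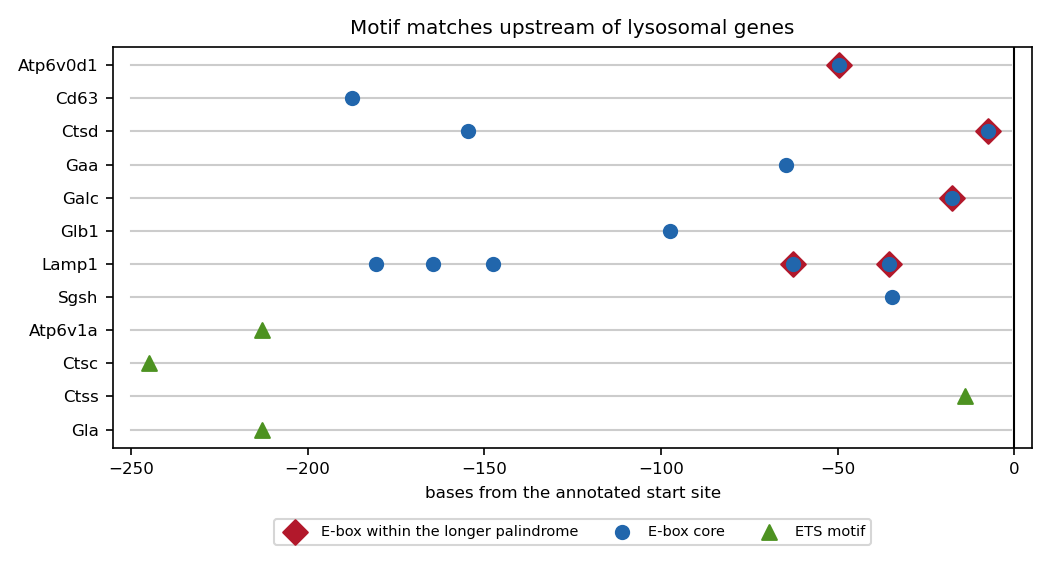
Position of motif matches in the 250 bases before the annotated start site (horizontal axis, in bases from the start site, 0 at the line) for the 12 lysosomal genes with a match; circles are CACGTG, diamonds mark those within TCACGTGA and triangles are AGGAAGT. Lamp1 holds 5 circles and Ctsd 2, and among the triangles that of Ctss lies nearest to the start site, from -17 to -11.

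Among the genes with CACGTG and a ratio, 6 of 6 were below 0 in COS1NR (median log2 ratio -0.68, from -2.95 to -0.31) and 6 of 6 in MFH1NR (median -1.18, from -2.07 to -0.10), although with no scaling Ctsd in COS1NR became 0.08 and Gaa in MFH1NR 0.65. Among the 20 genes without it, 11 were below 0 in COS1NR (median -0.14) and 16 in MFH1NR (median -0.60). These groups were formed after the values were seen, and the difference was not tested. In the motif map the match of Ctsd nearest to the start site begins at -10, that of Lamp1 at -38 and that of Atp6v0d1 at -52. A match is a run of letters and says nothing about binding in these cells.

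**Figure D5:**
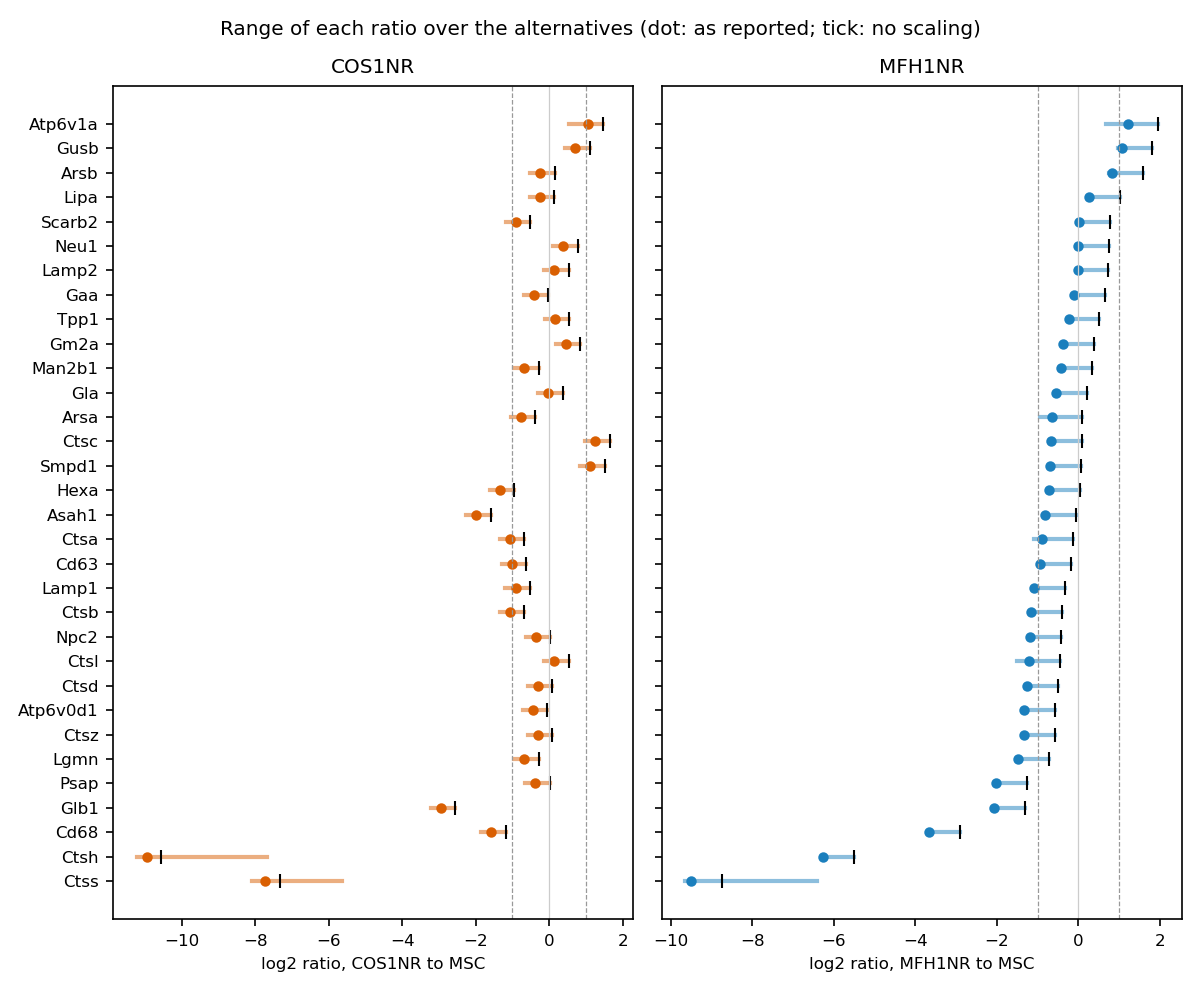
Log2 ratio to MSC (horizontal axis) of the 32 lysosomal genes in COS1NR (left) and MFH1NR (right); dots are the values as reported, ticks the values with no scaling between arrays, and lines the range over the alternatives. In MFH1NR the ticks stand to the right of the dots, and Ctsh, Ctss, Cd68, Glb1 and Psap stay left of the dashed 2-fold line over the whole range.

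The plot of ranges shows how far the scaling carried each ratio. The tick lies right of the dot for each gene, by the same amount within a comparison. Values of -1.07 for Ctsb and 1.07 for Atp6v1a in COS1NR had ranges that crossed the 2-fold line, whereas Glb1 in COS1NR ranged from -3.23 to -2.56.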

How the data were processed

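RNA of MSC, COS1NR and MFH1NR was labeled with Cy3 and hybridised to 1 Agilent whole rat genome array each. The deposited values are processed intensity values that the authors made with Agilent Feature Extraction (version 10.5.1.1 per the file headers, 9.1 per the labels), with the background subtracted and no scaling between arrays. The deposited series table equalled them for 45018 of 45018 spots on each array. The RNA and labeling kits named by the labels differ from those in the study's methods.

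Control spots and between 187 and 217 outlier spots per array were left out, spots of a probe were averaged in log2, and each array was taken relative to its 75th percentile. Probes were named through RefSeq accessions (assembly GRCr8), which named 16745 of 41012 probes, and the brightest probe stood for a gene. For bounds, levels not well above background were set to the higher of their own intensity and the lowest intensity called well above background (17.9 in MSC, 29.4 in COS1NR, 30.1 in MFH1NR). Python 3.11.15, numpy 2.4.6, pandas 2.3.3 and, for normexp with offset 50, R 4.3.3 with limma 3.58.1 were used. Quantile normalization was computed in Python. Normexp was run on the median spot intensity and the median local background. The counting was tested on simulated data.

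The genes and lists (hydrolases, membrane proteins, V-ATPase, sorting, MiT/TFE regulators, cysteine protease inhibitors, autophagy, proteasome and markers of macrophages, osteoclasts, T cells, B cells, neutrophils, erythroid, endothelial, stromal, osteoblast, adipocyte and proliferating cells) were chosen with earlier results of these data known. Genes at least 2-fold apart were given with each array's value, those within 2-fold by range with up to 4 examples, and from each lysosomal list the brightest 4 that were higher and the brightest 4 that were lower. The markers named were the brightest 4 of the macrophage list and those not well above background in both sarcomas or on every array. Another 12 alternatives for scaling, background, probe, filter and threshold were computed. The number of arrays, 1 per cell type, limits the precision. Promoters were taken from the RefSeq table, and no gene coordinates from the array design were used.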

Additional observations from a re-analysis of the deposited data

Results flagged for a closer look

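In 3 genes the sarcomas lay on opposite sides of MSC, each by more than the median spread among a gene's probes (0.28 in log2 for COS1NR and 0.31 for MFH1NR). The difference between the lines' ratios to MSC was not tested, since each cell type was 1 array. Ctsc had a log2 ratio to MSC of 1.26 in COS1NR and -0.66 in MFH1NR. Smpd1 had 1.11 in COS1NR and -0.70 in MFH1NR. Gm2a, the cofactor that presents ganglioside GM2 to beta-hexosaminidase, had 0.45 in COS1NR and -0.38 in MFH1NR, with intensities of 814 in MSC, 1458 in COS1NR and 1058 in MFH1NR. With no scaling between arrays the values in MFH1NR were 0.10 for Ctsc, 0.06 for Smpd1 and 0.38 for Gm2a, on the same side as COS1NR.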

How the results depend on the processing

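With 1 array per cell type, no ratio has an error between cultures, and the slide cannot be told apart from the cell type where MSC is compared. No paired analysis was possible because each group holds 1 array and the labels carry no replicate numbers. Among the lysosomal genes and the other named genes followed through the alternatives, no ratio past 2-fold changed its sign. Counts of lysosomal genes higher or lower moved by more than 1.5 times as follows. With no scaling, 5 were lower in COS1NR, 4 higher and 5 lower in MFH1NR than in MSC, and 5 higher in MFH1NR than in COS1NR. With spike-in scaling, 0 were higher in COS1NR, 5 lower in MFH1NR than in MSC, and 10 higher and 3 lower in MFH1NR than in COS1NR. Normexp correction and the mean of all probes each left 1 higher in MFH1NR. The second probe, available for 6 genes, gave 0 higher and 3 lower in each sarcoma against MSC, and 0 higher and 1 lower in MFH1NR against COS1NR. At 3-fold, 0 were higher and 4 lower in COS1NR, 0 higher and 5 lower in MFH1NR, and 1 was higher in MFH1NR than in COS1NR. The other 51 counts stayed within 1.5 times, including those from the series table, whose values equal the ones used and could not move. Low signal limits Galc on every array, Ctss in both sarcomas and Ctsh in COS1NR to bounds or no ratio.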
